A study of Mus musculus with 12 samples.

Results

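The genes described here encode the proteins of the cytosolic ribosome. They were taken by symbol from the gene rows of 4 single-cell expression libraries of mouse meninges: every symbol that is Rps or Rpl followed by a digit, together with Rpsa, Rplp0, Rplp1 and Rplp2. Symbols marked as pseudogene copies (16 symbols containing -ps) and the 10 Rps6k kinase genes, whose names begin alike, were left out. This gave 87 genes of the 28694 gene rows: 43 core proteins of the large subunit, 31 core proteins of the small subunit, the 3 proteins of the P stalk, and 10 paralogs or other symbols that the naming rule also caught. All 87 had at least 1 UMI, a molecule counted once by its barcode. One of the 10, Rps19bp1, encodes a protein that binds Rps19 and is not itself a ribosomal subunit.

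The ribosome is built from a small subunit, which reads the messenger RNA, and a large subunit, which joins the amino acids. Each core protein is present about once per ribosome, with the P stalk proteins, which recruit the elongation factors, as the known exception. The messengers of these proteins are short and abundant, and they begin with a run of pyrimidines, the terminal oligopyrimidine motif, through which growth signals control their translation as a group. In leukocytes the cell's stock of ribosomal protein messengers is known to be high in resting lymphocytes and low in mature neutrophils, which lose much of their capacity for protein synthesis as they mature.

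The cells came from the meninges, the membranes around the brain, of C57Bl/6j mice at postnatal day 4. Naive mice were compared with mice sampled 6 h after hypoxia-ischemia (HI), the standard rodent procedure for the injury that too little blood and oxygen cause in a newborn's brain. There were 2 naive and 2 HI libraries, called naive 1, naive 2, HI 1 and HI 2, and each was a pool of 12 mice, 6 male and 6 female. The series lists no sham group, so surgery and handling cannot be told apart from HI, and since a library is a pool, p-values measure the spread between pools and not between mice. The pools were handled in 2 runs, each with a naive and an HI pool, but the labels do not link a replicate number to a run.

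Ribosomal protein genes are known for a run of C and T bases at the transcript start, which some of the windows shown here hold and some do not. Windows of 30 bases before to 20 bases after the annotated start are shown for a few members on which the results below turn (RefSeq, GRCm38.p6), 5′ to 3′ on the gene's strand, with runs of at least 8 C or T in capitals. Rps24, the member with the most UMIs, is at chr14:24490648-24490697 on the plus strand. Rps27 is shown with its copy Rps27rt, whose counts are uncertain. Rps27 lies at chr3:90213629-90213678 on the minus strand and Rps27rt at chr9:114982720-114982769 on the minus strand. Rps27l, a paralog of Rps27 that p53 is known to induce, is at chr9:66946056-66946105 on the plus strand. Rpl22l1, the paralog of Rpl22, is at chr3:28805478-28805527 on the plus strand.
Rps24: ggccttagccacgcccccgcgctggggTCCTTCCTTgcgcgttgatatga
Rps27: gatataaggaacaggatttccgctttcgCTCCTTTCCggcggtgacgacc
Rps27rt: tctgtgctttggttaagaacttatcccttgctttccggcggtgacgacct
Rps27l: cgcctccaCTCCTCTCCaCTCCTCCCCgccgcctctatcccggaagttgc
Rpl22l1: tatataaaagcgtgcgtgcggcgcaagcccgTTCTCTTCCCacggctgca

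Rps27 and Rps27rt share a stretch of 38 identical bases that begins at position 2 of the Rps27 transcript and at position 1 of the Rps27rt transcript, counted from the annotated start as 1. A read that lies wholly within that stretch has no base that tells the genes apart. How reads were split between these genes was not tested, so the Rps27rt values below, at 3.53% of the Rps27 UMIs, are uncertain. Of the 87 genes, 66 had a promoter window of 300 bases in the RefSeq table. A run of at least 8 C or T on the gene's strand, within 25 bases before and 25 after an annotated start, was present in 33 of the 66 (50%), against 22.3% of 27025 genes. The motif CCGGAAG, on either strand anywhere in the window, was present in 39.4% of these members and in 9.93% of all genes. AAGATGGCG, also on either strand, was present in 6.06% against 1.64%, and TATAAA, on the gene's strand within 40 bases before the start, in 1.52% against 2.78%. Genes with several annotated starts counted once if any window held the motif. A match is of letters only and says nothing of binding.

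Ribosomal protein messengers made up a like part of all UMIs in the 4 libraries. After cells of low quality and likely doublets were removed, 20725 cells remained, between 4070 and 6081 per library, with median depths of 9574 to 11091 UMIs per cell and median mitochondrial shares of 2.41 to 2.63%. Of the UMIs in these cells, the 87 genes held 16.7% in naive 1, 17.3% in naive 2, 16.2% in HI 1 and 17.7% in HI 2. The values of the naive libraries lay between those of the HI libraries, so the groups overlapped. Any pair of libraries shared 29 to 55 cell barcodes. Cells were grouped into 42 clusters without using the ribosomal genes, and a cluster was named for a cell type from marker genes, so a class name means cells resembling that type. The markers that named the main classes are high in them by that choice, which is no separate support for the names. Border-associated macrophages (BAM) live in the tissues that surround the brain. The summed level of 10 BAM markers was 18533 to 20063 CPM in the clusters of that name. CPM are UMIs scaled to the same total in every library and class. The summed level of 10 microglial markers was 20280 to 25245 CPM in microglia.

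Within the family, levels differed widely between genes. UMI counts are per molecule and were not scaled by length, because only the 5′ end of each molecule is read. Rps24, a small subunit protein that takes part in processing the ribosomal RNA precursor, held the most UMIs, 2.75% of all ribosomal UMIs. Its level was 4553 CPM in naive 1, 4835 in naive 2, 4330 in HI 1 and 4907 in HI 2, with the naive libraries inside the range of the HI libraries. Rps29 (2.39%), a small zinc-binding protein of the small subunit, Rpl23 (2.28%) and Rpl41 (2.27%), a peptide of the large subunit that is among the shortest proteins known, followed. The 10 highest genes together held 22.4% of the ribosomal UMIs. At the low end of the core set stood Rps15 (0.407%), Rpl4 (0.37%), Rpl31 (0.293%) and Rpl23a (0.238%). Rpl23a, which lies at the exit of the peptide tunnel, was found in 93% of cells even so, and Rps24 in 99.8%.

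The 10 non-core symbols together were under 1% of the pool (0.85%), and they ranged from broadly detected to nearly absent. Rpl36al, a close copy of Rpl36a, was at 623 to 700.3 CPM and Rpl22l1 at 266 to 315 CPM across libraries. Rps27l was at 260 CPM in naive 1, 261 in naive 2, 302 in HI 1 and 288 in HI 2, so both HI libraries lay above both naive libraries for this gene over all cells. Rpl7l1, a relative of Rpl7, was at 87.8 to 99.1 CPM, Rps27rt at 54.1 to 70.6 CPM and Rps19bp1 at 39.3 to 44.4 CPM. Rpl6l, Rpl39l and Rpl3l, copies of Rpl6, Rpl39 and Rpl3, were rare, with 1502, 1247 and 576 UMIs. Rpl10l, the copy of Rpl10 known from the testis, had 2 UMIs.

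The share of a cell's UMIs on ribosomal protein genes depended strongly on cell type. Lymphoid cells stood at the top, with 31 ± 1.02% (mean ± SD of the 4 libraries) in T cells and 28.9 ± 1.1% in B cells. Macrophages and monocytes held about the middle, with 16.9 ± 0.585% in BAM, 16.5 ± 0.772% in classical monocytes, 15.4 ± 0.447% in microglia and 14.2 ± 0.53% in non-classical monocytes, the patrolling cells of the vessel wall. Mature neutrophils were the lowest at 3.54 ± 2.01%. The values were 30.4, 29.9, 32 and 31.7% in T cells of naive 1, naive 2, HI 1 and HI 2, and 16.4, 17.1, 16.5 and 17.7% in BAM in that order. No test was made of a share, which is a score over the members, and the order of classes is a description of these 4 libraries.

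**Figure D1:**
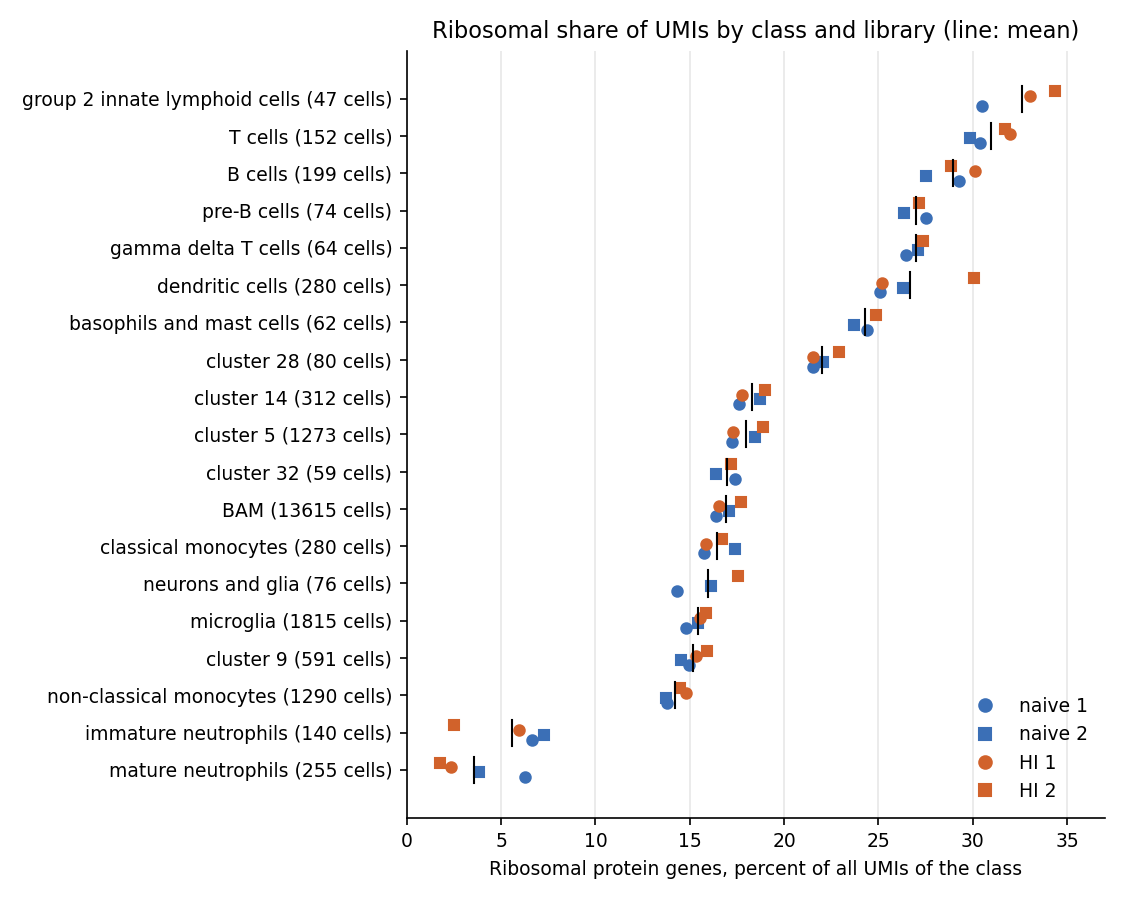
Share of all UMIs on the 87 ribosomal protein genes (x axis, percent) for each cell class with a value in at least 3 libraries; each point is a library, coloured by group. T cells sit at 29.9 to 32%, BAM at 16.4 to 17.7% and mature neutrophils at 1.75 to 6.26%.

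Neighbours in that order mostly overlapped. Of the classes with a value in every library, dendritic cells (26.7 ± 2.34%) did not overlap with cluster 28 (22 ± 0.659%), an unnamed cluster led by the receptor gene Tcrg-C1 and Il7r, in any library. Cluster 28 in turn lay above cluster 14 (18.3 ± 0.696%), an unnamed cluster with BAM markers and the fibroblast genes Vtn, Ptgds and Dcn among its leading genes. Non-classical monocytes did not overlap with immature neutrophils, which held 5.57 ± 2.13%. Between those steps, cluster 14, cluster 5 (18 ± 0.82%, with BAM markers and neuronal genes such as Fabp7, Mapt and Stmn2), BAM, classical monocytes, microglia and cluster 9 (15.2 ± 0.592%, led by Gpnmb, Spp1 and Csf1) each overlapped with the next class. Cluster 9 and non-classical monocytes overlapped as well, although cluster 9 was higher within each of the 4 libraries. With a value in 3 libraries only, group 2 innate lymphoid cells held 30.5 to 34.4%, pre-B cells 26.4 to 27.5%, gamma delta T cells 26.5 to 27.4%, and basophils and mast cells 23.7 to 24.9%. Depth differed between classes: the cells of cluster 9 had medians of 18446 to 20612 UMIs and those of non-classical monocytes 5675 to 6117, at neighbouring shares. Among the BAM clusters, cluster 0 had the lowest median depth (8476 UMIs) and the highest mean share (18.7%). Other BAM clusters went against that order: cluster 15, at 9155 UMIs, had 15.1%, and cluster 17, at 14010 UMIs, had 17.8%. The part of depth in the shares was not tested.

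**Figure D2:**
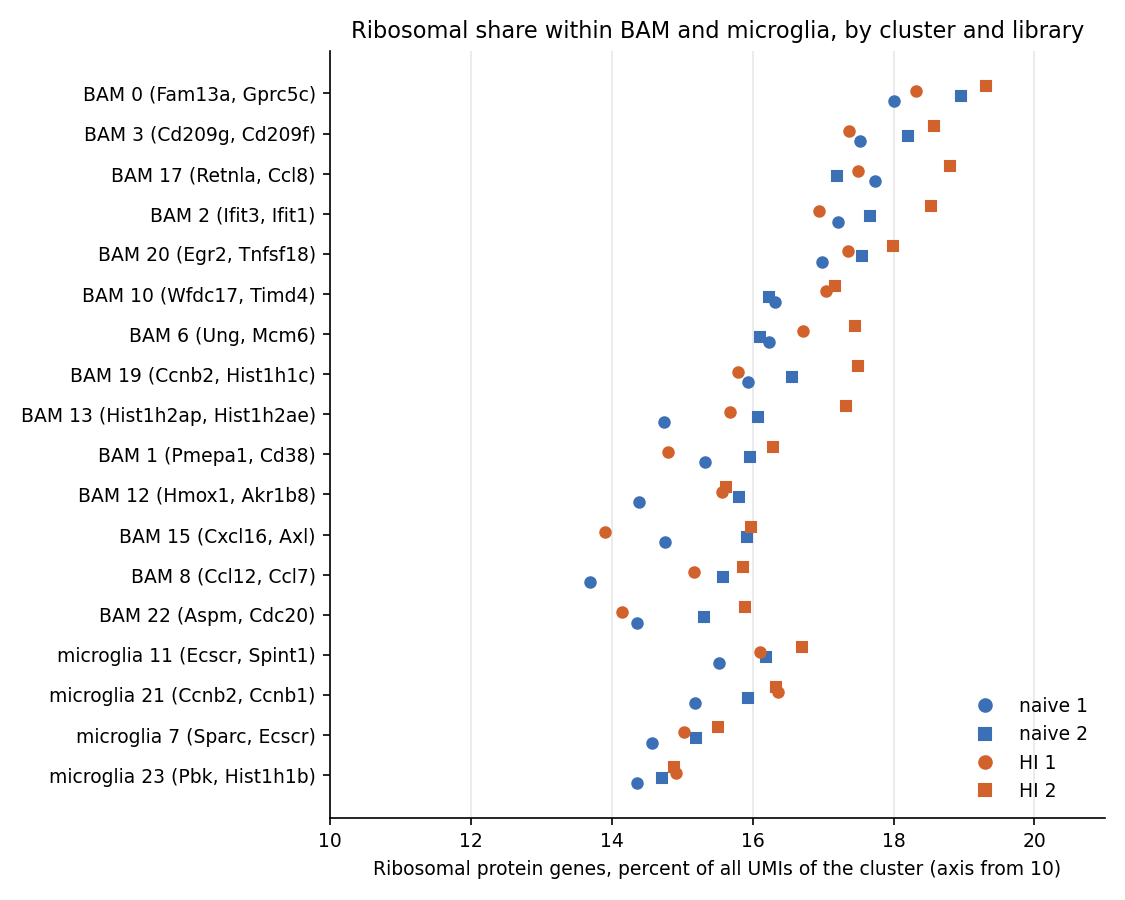
Ribosomal share (x axis, percent of UMIs, starting at 10) of the clusters that make up BAM and microglia, each named with 2 of its leading genes, 1 point per library coloured by group. Among BAM clusters the mean runs from 14.9% in cluster 22 to 18.7% in cluster 0. Clusters 13, 19 and 6, which like cluster 22 are led by cell cycle genes, have means of 16, 16.4 and 16.6%.

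Within BAM, the clusters spanned a range wider than that between BAM and classical monocytes. Cluster 0, the largest BAM cluster, led by Fam13a and Mrc1, had the highest share: 18% in naive 1, 19% in naive 2, 18.3% in HI 1 and 19.3% in HI 2. Cluster 22, led by the mitotic genes Aspm and Cdc20, had the lowest at 14.3, 15.3, 14.1 and 15.9% in the same order, and no library of the former overlapped with any of the latter. Cluster 8, led by the chemokine genes Ccl12, Ccl7 and Ccl2 and made mostly of HI cells, was at 13.7, 15.6, 15.2 and 15.9%. The interferon-response cluster 2, led by Ifit3 and Isg15, was at 17.2, 17.7, 16.9 and 18.5%. In most BAM clusters the HI libraries overlapped with the naive libraries, whereas in clusters 10 and 6 both HI libraries were higher. Across the 4 microglial clusters the mean share was 14.7 to 16.1%. In clusters 7 and 11, the largest of them, the groups overlapped, whereas in clusters 21 and 23 both HI libraries were higher. Cluster 7, with a mean share of 15.1%, held 60 and 59.9% of the microglia of naive 1 and naive 2. It held 49.3 and 46.7% of those of HI 1 and HI 2.

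Between HI and naive pools the share moved little in most classes, and its direction differed between cell types. In microglia it was 14.8 and 15.4% in the naive libraries and 15.5 and 15.9% in the HI libraries. The difference was 0.589 percentage points with no overlap, but within the largest microglial clusters, 7 and 11, the groups overlapped. In non-classical monocytes the share was 13.8 and 13.7% against 14.8 and 14.5%, and in cluster 9 15 and 14.5% against 15.3 and 15.9%. In T cells it was 30.4 and 29.9% against 32 and 31.7%. These 4 classes, all without overlap, were higher in HI by 0.589 to 1.72 points. BAM, B cells, dendritic cells, classical monocytes and clusters 5, 14 and 28 overlapped between groups. In BAM the mean of the HI libraries was 0.371 points higher, but in each group the library numbered 2 was the higher by more than that, and without HI 2 the difference was −0.204 points. Dendritic cells differed by 1.94 points, which turned to −0.495 without HI 2 (30.1%, against 25.1 to 26.3% in the others). With 2 libraries against 2, an exact permutation test cannot give a p below 0.33, and none was made.

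In T cells and non-classical monocytes, RNA of another cell type was uneven between the libraries. The summed level of the 10 BAM markers in T cells was 614 CPM in naive 1, 12.4 in naive 2, 1717 in HI 1 and 58.4 in HI 2, with 6 of 10 markers at 0 in naive 2 and 4 of 10 in HI 2. In non-classical monocytes it was 110 and 95.1 CPM in the naive and 330.2 and 170.3 CPM in the HI libraries. BAM hold fewer ribosomal UMIs per UMI than T cells and more than non-classical monocytes. The part that such RNA played in the shares was not tested. In microglia the BAM markers summed to 1029 and 1035 CPM in the naive and 967 and 600.4 CPM in the HI libraries.

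Neutrophils differed in the other direction. In mature neutrophils the share was 6.26% in naive 1, 3.83% in naive 2, 2.33% in HI 1 and 1.75% in HI 2, a difference of −3.00 points with no overlap, from 23, 44, 84 and 104 cells. Immature neutrophils, which still make granule proteins, held 6.62, 7.25, 5.96 and 2.48%, from 12, 29, 89 and 10 cells. The groups did not overlap there either, but the 2 HI libraries differed from each other by more than HI 1 did from the naive libraries. The mature neutrophils of the groups were not the same cluster: cluster 35, with a median of 4046 UMIs per cell, held 12 of the 23 cells of naive 1 and none of HI 1, whereas cluster 25, with a median of 6761 UMIs and led by Retnlg and Mmp8, held 7 of the 23 and 55 of the 84. The BAM markers summed to 2590 CPM in naive 1, 1457 in naive 2, 523 in HI 1 and 52.6 in HI 2 of mature neutrophils, in the same order as the ribosomal share, with all 10 markers present in naive 1, naive 2 and HI 1 and 2 of them at 0 in HI 2. The neutrophil markers (8 genes) ran the other way, from 154000 to 294241 CPM. The part of BAM RNA in this difference was not tested. As the median over cells, which a few cells with much foreign RNA move less, the difference was −0.879 points.

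Without a replicate block, ribosomal protein genes did not pass the test between HI and naive pools in any tested class. Calls with such a block are given at the end. UMIs were summed per library and class and tested over all genes with edgeR's quasi-likelihood test (Benjamini-Hochberg adjusted p below 0.05), in the 8 classes where each library held 40 cells or more, which left out neutrophils, B cells and T cells. In BAM 0 of 85 tested members were called, where 3.37% of all 12772 tested genes were, and in microglia 0 of 85, where 3.68% were. In non-classical monocytes it was 0 of 85 (2.72% of all genes), in cluster 5 0 of 85 (1.14%), and in cluster 14 0 of 83 (0.918%). In classical monocytes it was 0 of 83 (0.394%), in dendritic cells 0 of 83 (0.0136%), and in cluster 9 0 of 85 (0.0104%), where few genes of any kind were called. DESeq2 called 1 member in BAM, Rps27l (log2 change 0.22, adjusted p 0.0471), and 0 in the other 7 classes.

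The number of members at an unadjusted p below 0.05 was likewise low beside that of all genes: 5 in BAM, where 21.2% of genes were below it, 3 in microglia (16.6%), 8 in non-classical monocytes (12.8%), 4 in cluster 9 (10.9%), 2 in cluster 5 (10.7%), 2 in cluster 14 (9.15%), 0 in classical monocytes (12.1%) and 0 in dendritic cells (4.05%). The changes were small and mostly positive. The median log2 change of the members was 0.04 in BAM, 0.04 in microglia, 0.04 in non-classical monocytes, 0.08 in cluster 9 and 0.12 in dendritic cells. It was −0.02 in classical monocytes, 0.02 in cluster 5 and 0.03 in cluster 14. The median over all tested genes was 0.00 in BAM and −0.01 in microglia. Of the 85 members, 69 had a positive change in BAM and 68 in microglia, while 50.9% and 48.9% of all genes did. In classical monocytes 38 of 83 were positive. Both HI libraries lay above both naive libraries for 23 members in BAM (24.5% of all genes did) and below them for 1 (27.9%). For microglia these counts were 41 above (23.7%) and 2 below (22.6%), for non-classical monocytes 53 (25%) and 2 (17.6%), and for cluster 9 45 (22.3%) and 0 (18.6%). In dendritic cells they were 12 (13.9%) and 0 (17.7%). Classical monocytes had 14 above and 12 below of 83 members. Cluster 5 had 14 and 7 of 85, and cluster 14 had 11 and 5 of 83. The share of all genes was not taken for those classes.

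The precision differed between classes and sets what could have been seen. In BAM the 95% intervals of all 85 members lay within a log2 change of 0.5 either way, with a median half-width of 0.16. In microglia 83 of 85 did, and in non-classical monocytes 82 of 85. In dendritic cells, with 49 to 87 cells per library, 18 of 83 did, with a median half-width of 0.43. A log2 change of 0.5 could therefore not be excluded for most members there.

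**Figure D3:**
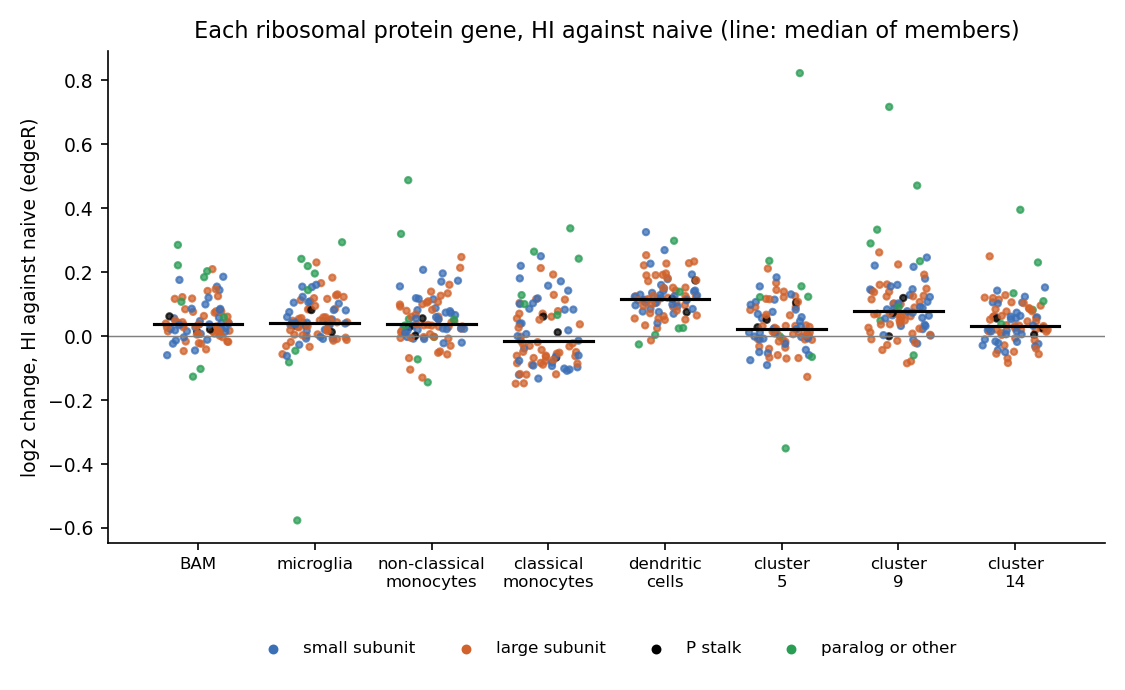
Log2 change of each ribosomal protein gene, HI against naive (y axis), in the 8 tested classes (x axis), 1 point per gene, coloured by role. The black line is the median of the members, which lies above 0 in every class shown except classical monocytes. None of the points passed the edgeR test. The point farthest from 0 is a paralog in each class except dendritic cells, where it is a small subunit gene.

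By role, the median of the paralogs lay above those of the core genes in BAM and microglia and below them in dendritic cells, with no member called. In BAM the median log2 change was 0.04 for the 31 small subunit genes, 0.03 for the 43 large subunit genes, 0.02 for the 3 P stalk genes and 0.15 for the 8 tested paralogs and others. In microglia the medians were 0.04, 0.04, 0.03 and 0.17 in that order, and in dendritic cells, with 6 paralogs tested, 0.12, 0.12, 0.12 and 0.02. Rps27l had the smallest adjusted p of any member in both classes. Its level in BAM was 258 and 257 CPM in the naive libraries and 309 and 288 CPM in the HI libraries, without overlap (log2 change 0.22, SE 0.05, edgeR adjusted p 0.0757). In microglia Rps27l was at 227 and 248 CPM against 297 and 290 CPM (log2 change 0.29, edgeR adjusted p 0.0734). Rps27l missed the threshold in both, and other settings moved it across. In BAM it passed with DESeq2 (adjusted p 0.0471), with no filter on low counts (0.0202) and without HI 2 (0.028), and in microglia with library totals in place of TMM scaling (0.0466) and with no filter (0.0428).

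Rpl36al had positive changes that missed the threshold, though with no filter on low counts it passed in BAM (adjusted p 0.0398). It was at 617 and 599 CPM in naive BAM and 694 and 695 CPM after HI (edgeR log2 change 0.20 and adjusted p 0.0937), and at 542 and 548 against 655 and 644 CPM in microglia (0.24, adjusted p 0.127). In non-classical monocytes Rpl36al was at 703 and 775 against 783 and 786 CPM, a change of 0.05. Rps27rt was at 54.8 and 63.7 against 98.2 and 77.3 CPM in non-classical monocytes (log2 change 0.49, edgeR adjusted p 0.0985), the groups again without overlap, with the uncertainty given above. There it passed with doublets kept (adjusted p 0.0305) and without HI 2 (0.0358), and in BAM with no filter (0.00173). Rpl22l1 had a negative change in BAM, from 268 and 281 to 241 and 266 CPM (log2 change −0.10, adjusted p 0.471). Rps19bp1, Rpl7l1, Rpl6l and Rpl39l gave no call by edgeR in any of the 8 classes with every library in the fit.

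Among core genes Rpl38, a large subunit protein known for its role in translating Hox messengers, was the one most often below an unadjusted p of 0.05 and is named after its values were seen. In BAM Rpl38 was at 1302 and 1513 CPM in the naive and 1638 and 1594 CPM in the HI libraries (log2 change 0.21, edgeR adjusted p 0.188), and in microglia at 818 and 994 against 1124 and 1022 CPM (0.23, adjusted p 0.226). In non-classical monocytes Rpl38 was at 1164 and 1237 against 1535 and 1388 CPM (0.25, adjusted p 0.138). HI lay above naive without overlap in each of these, and naive 1 was the lowest library in all 3. Rpl38 passed in BAM with no filter on low counts (adjusted p 0.0298) and in non-classical monocytes without HI 2 (0.0394). Rps29 was highest in HI 1: 4179 and 4514 CPM in the naive libraries of BAM, 5123 in HI 1 and 4632 in HI 2 (log2 change 0.18, adjusted p 0.203). Rps29 passed without HI 2 in BAM (adjusted p 0.0474) and in non-classical monocytes (0.0077).

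The difference between classes in the response to HI was tested as an interaction with a term for each library. For microglia against BAM, 0 of 85 members were called by edgeR, where 1.07% of all genes were, and 1 member had an unadjusted p below 0.05 (10.9% of all genes). For non-classical monocytes against BAM, 0 of 86 members were called (2.45% of all genes) and 3 had an unadjusted p below 0.05 (10.2%). DESeq2 called 0 in both.

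Other genes of protein synthesis were counted in the same fits, and the ribosome biogenesis genes gave calls where the ribosomal proteins gave none. The first list was ribosome biogenesis (30 genes), mostly nucleolar genes, with the transcription factor Myc counted among them. The others were translation factors and other messengers of the pyrimidine-run kind (18 genes), and proteins of the mitochondrial ribosome (77 genes). In microglia 17 of 30 biogenesis genes rose in HI by edgeR and 0 fell, with a median log2 change of 0.48, and in BAM 6 of 30 rose and 0 fell, with a median of 0.34. Higher calls made up 1.85% of all genes in microglia and 2.22% in BAM. The biogenesis list held 0.165 and 0.153% of the UMIs of naive microglia and 0.235 and 0.216% of those of HI microglia, and 0.122 and 0.121% against 0.159 and 0.137% in BAM, both without overlap.

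The genes of the biogenesis list named here, Myc among them, were chosen from those called after their values were seen. Ncl, the nucleolin gene, was at 314 ± 8.06 CPM (SD, n = 2) in naive and 476 ± 29.5 CPM in HI microglia (log2 change 0.59, SE 0.08, edgeR adjusted p 0.000812). Nop58, a core protein of the particles that methylate ribosomal RNA, was at 64.6 ± 1.02 against 106 ± 6.99 CPM in microglia (0.70, adjusted p 0.00067). Myc, the transcription factor that drives ribosome production, was at 47.8 ± 1.87 against 111 ± 9.05 CPM (1.20, adjusted p 1.32e-06) in microglia. In BAM Myc was at 17.8 ± 1.57 against 37.6 ± 4.03 CPM (1.08, adjusted p 0.00474), Gnl3 (nucleostemin) at 19.8 ± 2.35 against 29.3 ± 2.23 CPM (0.58, adjusted p 0.0262) and Polr1a, the largest subunit of RNA polymerase I, at 8.73 ± 0.0873 against 13.5 ± 1.97 CPM (0.63, adjusted p 0.0327). In the other 6 classes 0 biogenesis genes were called, and in cluster 9 all 30 had a positive change with a median of 0.61, where 0.0104% of all genes were called. The translation factors gave 0 calls in all 8 classes, with medians of −0.00 in BAM and 0.08 in microglia. Of the mitochondrial ribosome genes 3 of 77 rose in microglia (Mrpl12, Mrpl15 and Mrps18b) and 1 of 77 in BAM (Mrpl52), with 0 lower, and in non-classical monocytes 1 of 76 rose (Mrpl52) and 1 fell (Mrpl14). Of all genes, 1.85% were called higher in microglia and 2.22% in BAM. These genes are named after their values were seen.

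Between cell types many members differed. The tests compared classes within the same 4 libraries, with a term for each library, and the members took no part in defining the classes. In microglia against BAM, 7 members were higher and 53 lower of 85 tested (32.8% and 35.9% of all genes). In non-classical monocytes against BAM, 14 were higher and 43 lower of 86 (29.8% and 40.9%), and with library totals in place of TMM 9 and 55. The 14 include Rpl3l and the 43 include Rpl39l, whose calls are not used as results, as described below. In classical against non-classical monocytes, 50 were higher and 1 lower of 85 (15.9% and 16%). The 1 lower call is that of Rpl3l and is likewise not used. In B cells against BAM, 75 were higher and 1 lower of 85 (24.6% and 34.5%). The median log2 change of the members was −0.16, −0.12, 0.24 and 0.68 in these 4 comparisons, beside −0.03, −0.19, 0.01 and −0.27 over all tested genes. Library totals in place of TMM moved the median of all genes to −0.29 in non-classical monocytes against BAM and to −0.16 in B cells against BAM. Single members therefore have a direction only relative to such shifts.

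**Figure D4:**
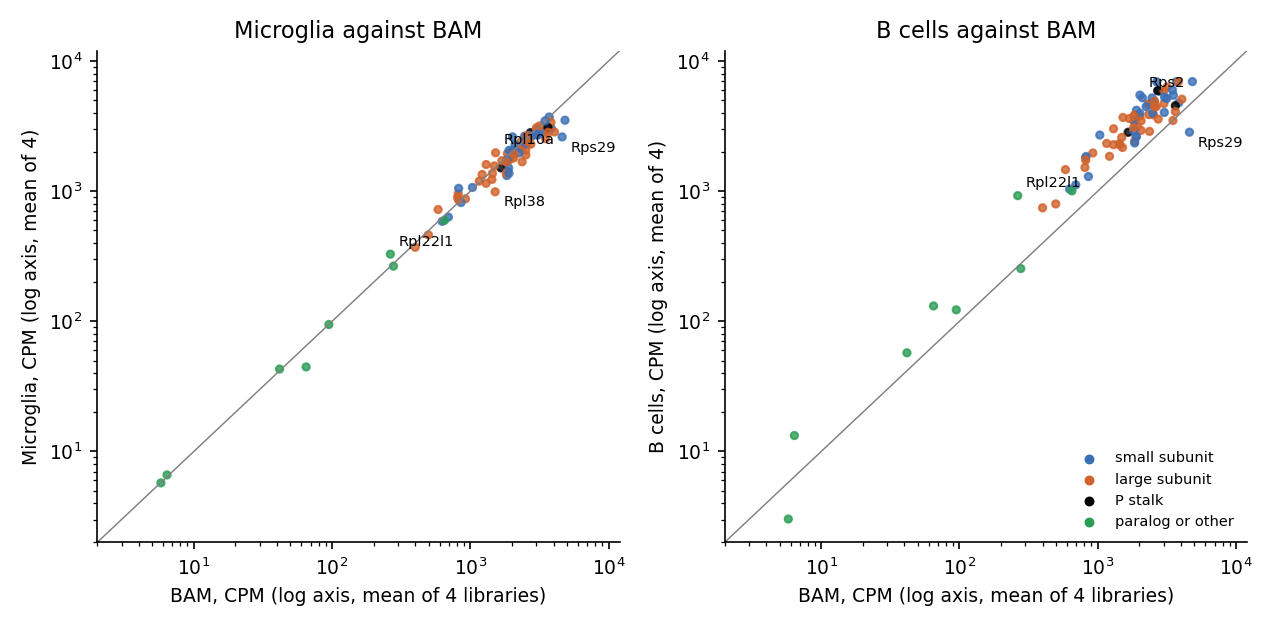
Mean CPM of each member in microglia and in B cells (y axes, log scale) against BAM (x axis, log scale), 1 point per gene above 1 CPM in both, coloured by role, with the line of equal level. In B cells nearly all points lie above the line and Rps29 is the farthest below it among the core genes, while in microglia most lie slightly below it.

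Microglia and BAM, the 2 resident macrophage types, differed in which ribosomal messengers they held. Rps29 was 2611 ± 185 CPM in microglia and 4612 ± 391 CPM in BAM (SD, n = 4; log2 change −0.88, SE 0.03, edgeR adjusted p 1.05e-10), with no library overlapping. Rpl38 was at 989 ± 127 against 1512 ± 149 CPM (−0.68, adjusted p 9.15e-09), and Rpl23, Rpl37a and Rps27 had log2 changes of −0.57, −0.56 and −0.54. All of these were lower in microglia, as was Rps27rt (−0.61). The higher genes changed less: Rpl10a, a protein of the L1 stalk through which used transfer RNA leaves, was at 1973 ± 27.6 against 1523 ± 68.7 CPM (0.31, adjusted p 7.06e-06), and Rps2 at 2614 ± 105 against 2020 ± 32.7 CPM (0.31, adjusted p 5.46e-06). Rps6, the subunit that the S6 kinases phosphorylate, was higher by 0.29, Rpl22l1 by 0.25, Rpl4 by 0.24 and Rpl3, which lies near the peptidyl transferase centre, by 0.23. The 60 calls held 51 with a log2 change within 0.5.

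Of the core genes, Rpl12, Rps12, Rps29 and Rplp1 lay farthest below BAM in non-classical monocytes. Rpl12, at the base of the P stalk, was at 331 ± 21 CPM against 818 ± 28.4 CPM in BAM (log2 change −1.21, SE 0.06, edgeR adjusted p 1.71e-11). Rps12 was at 1349 ± 37.2 against 3031 ± 110 CPM (−1.07, adjusted p 7.63e-12), and Rplp1, a protein of the P stalk itself, at 1690 ± 55.4 against 3644 ± 112 CPM (−1.01, adjusted p 1.65e-11). Rps29 (−1.02) and Rpl36a (−0.75) were lower too. The rare Rpl39l was at 1.05 ± 1.04 against 5.78 ± 0.651 CPM, values close to the floor, and its call among the lower members is not used as a result. In the other direction Rps27a, which is made as a fusion with ubiquitin, was at 4746 ± 100.4 against 3474 ± 136 CPM (0.55, adjusted p 2.84e-08). Rpl27 (0.49), Rpl9 (0.34), Rpl36al (0.33) and Rpl18 (0.31) were higher as well. Pseudogene rows of Rps12, Rpl27 and Rpl9 take reads, at 12.7% of the Rps12 and 5.94% of the Rpl27 UMIs, and at 3.71% of the Rpl9 UMIs for Rpl9-ps6. How the reads of these genes were split is therefore uncertain.

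Rpl3l, the paralog of Rpl3 known from heart and skeletal muscle, was the member with the most uneven distribution. Of its 576 UMIs, 500 were in non-classical monocytes, at 66.9 CPM in naive 1, 58.6 in naive 2, 74.6 in HI 1 and 51.4 in HI 2, with no difference between groups that passed the test (log2 change −0.07, edgeR adjusted p 0.93). In BAM, with more than 10 times as many cells, there were 11 UMIs (0.0656 ± 0.0791 CPM). Rpl3l met the filter on low counts in the comparisons of non-classical monocytes with BAM and with classical monocytes through the cells where it is high, so its calls there are not used as results. Mature neutrophils came next at 12.5, 18.7, 21.9 and 10.8 CPM from 28 UMIs, and classical monocytes at 3.23, 7.20, 5.54 and 8.34 CPM from 18. Rpl3l had 0 UMIs in microglia, T cells, B cells, cluster 14 and cluster 28. Even where it was highest, Rpl3l was far below Rpl3 itself, which was at 894 ± 49.7 CPM in non-classical monocytes, and whether Rpl3l reads could come from a neighbouring or similar gene was not tested.

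Classical monocytes, the circulating cells that enter inflamed tissue, had higher levels than non-classical monocytes of 50 of the 85 tested members, with log2 changes of 0.77 for Rpl12 (556 ± 22.1 against 331 ± 21 CPM, SE 0.09, edgeR adjusted p 0.000144), 0.67 for Rpl14, 0.66 for Rpl10a, 0.63 for Rpl3 and 0.57 for Rps2. Rps19bp1 was higher by 0.59 (adjusted p 0.0254), a call lost under DESeq2 (adjusted p 0.146) and when naive 1, naive 2 or HI 2 was left out. The 1 lower call was that of Rpl3l, described above. All 3 P stalk genes, 18 of 31 small and 25 of 43 large subunit genes were among the higher genes. Without HI 2 the comparison had 26 calls in place of 51.

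B cells exceeded BAM in 75 of the 85 tested members. Rpsa, the small subunit protein also known as the laminin receptor, was at 6925 ± 347 CPM in B cells and 2671 ± 156 CPM in BAM (log2 change 1.27, SE 0.10, edgeR adjusted p 1.3e-14). Rps2 (5477 ± 663 against 2020 ± 32.7 CPM, 1.32), Rps18 (1.28), Rpl4 (1.22) and Rps26 (1.20) were similar. The row Rps26-ps1 held UMIs equal to 4.65% of those of Rps26, so how the Rps26 reads were split is uncertain. The largest change was that of Rpl22l1, at 828, 865, 994 and 1011 CPM in B cells of naive 1, naive 2, HI 1 and HI 2 and 241 to 281 CPM in BAM (1.70, adjusted p 5.75e-17). Rps29 was the 1 member lower in B cells (2841 ± 241 against 4612 ± 391 CPM, −0.81, adjusted p 1.32e-09). Biogenesis genes were higher too, 29 of 30, and translation factors 16 of 18, where 24.6% of all genes were.

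As parts of the ribosomal pool, core genes differed in how far they ranged across classes. The pool part is a gene's percent of all ribosomal UMIs of a class, averaged over libraries. The ranges are over the 8 classes of the plot of pool parts, with the numbered clusters and immature neutrophils left out. Over the 77 core genes the highest of these classes exceeded the lowest by a ratio that ran from 1.07 for Rplp2 to 3.43 for Rps9, with 1.12 for Rpl23a and 1.16 for Rps16. The numbered clusters would widen some of these ranges: Rplp2 held 1.09% in cluster 9, above its highest value in the 8 classes (1.05%). Rps29 ran from 0.982% in B cells to 2.73% in BAM, and Rpl12 from 0.233% in non-classical monocytes to 0.662% in T cells. In BAM the small and large subunit genes held 44 and 50.4% of the pool of naive 1, and in T cells 44.1 and 49.8%. In mature neutrophils they held 44.3 and 49.9% in naive 1, 45.8 and 49.5% in naive 2, and 45.8 and 48.7% in HI 1. Only in HI 2, with 48.9 and 46%, did the small subunit genes hold the larger part. These values were not tested.

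**Figure D5:**
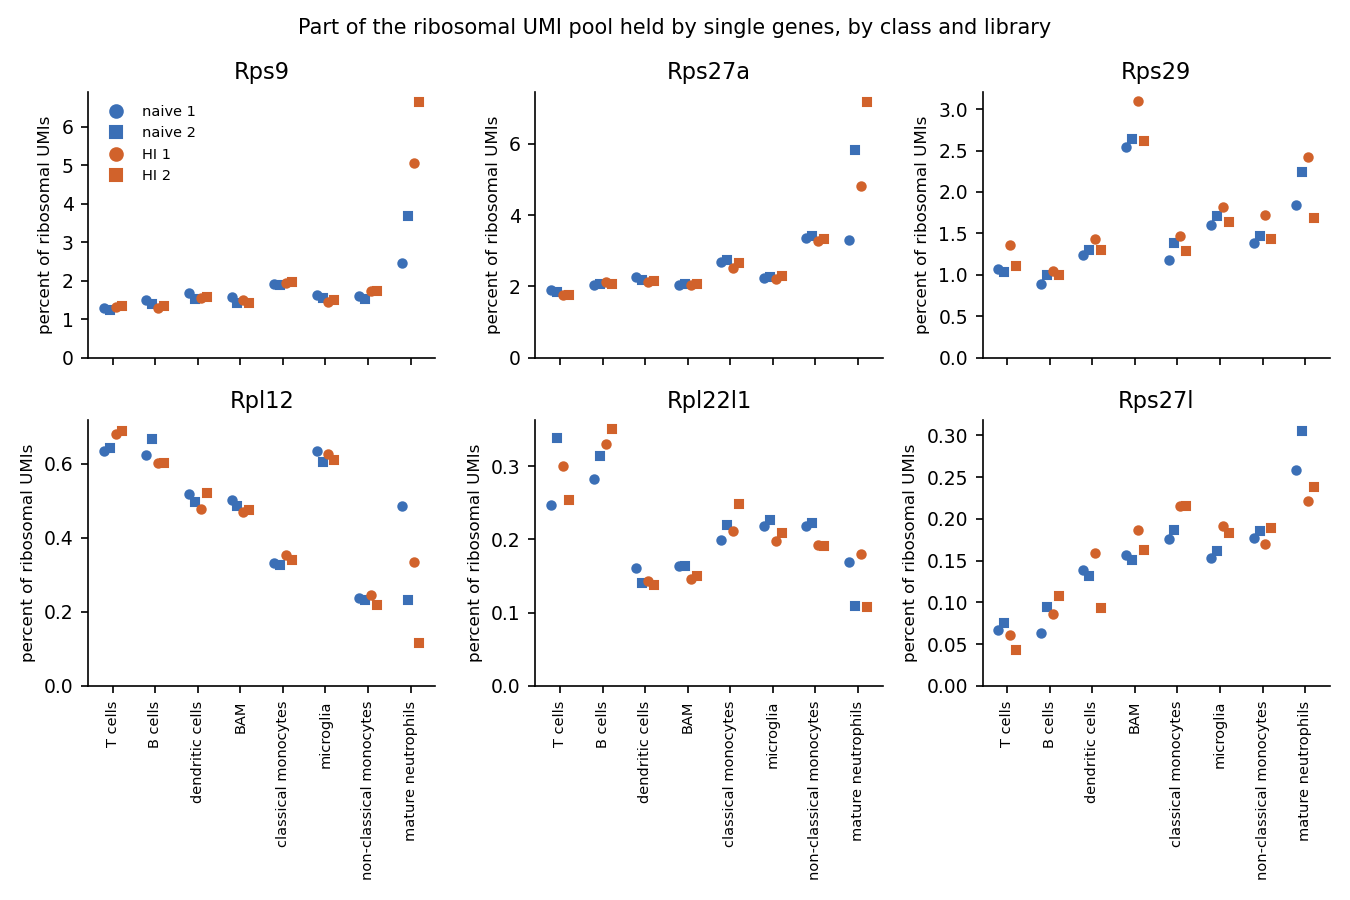
Percent of the ribosomal UMIs of a class that 6 members held (1 panel per gene; x axis class, y axis percent, each panel from 0 with its own scale), 1 point per library coloured by group. Rps9 and Rps27a reach 6.63 and 7.19% in mature neutrophils of HI 2, while Rps29 has its highest mean in BAM.

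Mature neutrophils kept an uneven remainder of the pool. Rps9, a small subunit protein that binds the ribosomal RNA early in assembly, held 2.47% of their ribosomal UMIs in naive 1, 3.67% in naive 2, 5.06% in HI 1 and 6.63% in HI 2, while in T cells it held 1.24 to 1.33%. Rps27a held 3.30, 5.84, 4.83 and 7.19%, against 1.76 to 1.90% in T cells. The level of Rps9 as CPM varied less than the total: 1544, 1405, 1181 and 1163 CPM in that order. Rpl12, by contrast, was at 305, 88.7, 78.1 and 20.2 CPM. The summed BAM markers given above are highest in naive 1, where the parts of Rps9 and Rps27a are the lowest of the 4 libraries, and lowest in HI 2, where they are the highest. Neutrophil values rest on few molecules, 2168 UMIs of Rps9 and 133 of Rpl12 in the class, and were not tested between groups.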

How the data were processed

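The authors deposited raw UMI counts, whole numbers for each gene and cell barcode, as 1 matrix for each library. The tools named in the submitters' processing notes are Cell Ranger 2.2.0 and Seurat, and the builds are GRCm38 and mm10; their roles are not given in the sources used here. The libraries held 51986763 to 68543046 UMIs. Barcodes needed 200 genes or more and a mitochondrial share of 10% or less, and Scrublet's highest scores were removed at 0.8% per 1000 barcodes (scanpy 1.11.5), because its automatic threshold marked 1 to 3 cells a library. With the ribosomal genes and their -ps symbols left out, Leiden clustering (leidenalg 0.10.2, resolution 1.5, seed 1, no integration of libraries) on 2000 variable genes reduced to 40 components with 20 neighbours gave 42 clusters. A cluster was named where at least 3 markers of a list were detected in at least 20% of its cells and no other list led its 10 leading genes. A myelin list was added after its leading genes were seen and left cluster 32 unnamed. The members, the marker lists and the other gene lists were chosen with earlier results of these data known.

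Shares are pooled UMIs of a class and library, for at least 10 cells. Genes were tested on sums per class and library with edgeR 4.0.16 (R 4.3.3; filterByExpr, TMM, quasi-likelihood, 2-sided, Benjamini-Hochberg at 0.05), with at least 40 cells per library for HI against naive and at least 20 for class against class, where library was a block. DESeq2 1.42.0 was the other tool. CPM values are of these sums. Named genes are the 5 core members with most and the 5 with fewest UMIs, every non-core member, and in each comparison up to 6 each way with the largest change among calls without overlapping libraries; others are said to be chosen after their values were seen. A few genes that the rule names are not reported here. On simulated counts for BAM, 93% of genes changed by a log2 of 1 and 76% of those changed by 0.5 were recovered, and for non-classical monocytes 74% and 29%. The simulated spread between pools was preset, alike for all genes and not estimated from these libraries. The changed genes were drawn from all tested genes, so the rates need not hold for the members. The alternatives were scaling, filters, doublets, a per-cell gate on marker UMIs, the replicate number as a block, and each library left out. All 87 gene IDs and symbols matched the gene tables.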

Additional observations from a re-analysis of the deposited data

Results flagged for a closer look

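The difference in ribosomal share between HI and naive libraries had opposite directions in different classes, with no overlap between groups. It was −3.00 percentage points in mature neutrophils, and 1.72 in T cells, 0.589 in microglia, 0.888 in cluster 9 and 0.891 in non-classical monocytes. The difference between these classes was not tested. Outside the genes counted here, the row Rps12-ps3 held UMIs equal to 12.7% of those of Rps12, in data with no control sample for that row, and how reads were split between such copies was not tested.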

How the results depend on the processing

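The classes were rebuilt from markers, the groups hold 2 pools each, and depth limits the small classes most. Of the values of genes named in the comparisons between cell types, 300 under the alternatives kept their direction and their side of the threshold, 4 (all of Rps19bp1) no longer passed it and none reversed. Most named genes that crossed the threshold between HI and naive are given with their results or under the block below. Without HI 2, Rps19bp1 in cluster 9 (log2 change 0.68) and Rpl27 in BAM (0.26) crossed it as well. For ribosomal shares, the median over cells gave 32.1% in T cells and HI minus naive differences of −0.879 points in mature neutrophils and 1.07 in non-classical monocytes. Classes from a per-cell gate gave 32.4% in T cells and differences of 0.722 points in T cells, −1.25 in classical monocytes, −1.37 in mature neutrophils and 1.15 in non-classical monocytes. With doublets kept the differences were 2.43 points in T cells and 0.517 in non-classical monocytes. Cells with 6000 to 12000 UMIs, an alternative chosen after seeing the data, gave 33.0% in T cells, 14.6% in microglia, and differences of −1.65 points in B cells, 3.56 in T cells and 0.639 in non-classical monocytes; the B cell difference changed sign. Leaving out a library in turn gave differences of −0.204 to 0.945 points in BAM, −0.495 to 4.37 in dendritic cells, −1.11 to 0.535 in classical monocytes, −0.386 to 0.840 in cluster 14, −0.573 to 1.01 in cluster 5, 0.195 to 1.98 in B cells, 1.46 to 1.99 in T cells, 0.279 to 0.898 in microglia, 0.594 to 1.18 in cluster 9, 0.744 to 1.04 in non-classical monocytes and −4.22 to −1.79 in mature neutrophils.

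Members called between HI and naive rose from 0 in BAM to 1 with DESeq2 and 4 with no filter on low counts, in microglia to 1 with library totals and 1 with no filter, and in non-classical monocytes to 1 with doublets kept. Leaving out a library gave 0 to 3 calls in BAM, 0 to 3 in non-classical monocytes and 0 to 1 in cluster 9, each highest without HI 2, and 0 to 2 in dendritic cells (Rpl23 and Rps28), highest without HI 1. Classical against non-classical monocytes had 26 to 43 calls, lowest without HI 2. With the replicate number as a block, 3 members were called in BAM (Rpl36al, Rps27l and Rps27rt), 3 in microglia (Rpl36al, Rpl38 and Rps27l), 4 in non-classical monocytes (Rpl37, Rpl38, Rps27rt and Rps9) and 1 in cluster 5 (Rpl38), all higher in HI. Same-numbered libraries correlated positively in all 8 classes in their deviations over genes, at 0.05 to 0.28. Pairing the libraries the other way gives the same values with a negative sign. The labels tie no number to a run, so the block stays an alternative beside the main fit. The causes were not tested.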
